A study of Mus musculus with 9 samples.

Results

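Cholesterol synthesis was followed through 7 of its enzymes (Hmgcs1, Idi1, Fdft1, Sqle, Lss, Cyp51 and Msmo1), 7 genes of the 32287 gene IDs measured. They were chosen by name for their place in the pathway, with earlier results of these data known. Levels are unique molecular identifiers (UMIs) per 1000000 UMIs of the same cells, written CPM, summed over the cells of 1 marker-defined class in 1 library or 1 mouse. Of the 7 genes, 6 passed the filter on low counts in the comparisons between classes, and Lss did not.

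Cells came from TiCY mice, in which Cre-ERT2 under the Nr2e1 (Tlx) promoter switches on eYFP from the ROSA26 locus after tamoxifen, so that neural stem cells (NSCs) and their progeny are labelled. All mice, controls included, were male per the study's methods, carried these transgenes and the Fas allele Fastm1Cgn, and received tamoxifen. The WT groups (strain TiCY) were set against KO groups (strain TiCY-IFNAGRKO) that also lacked the type-I and type-II interferon receptor genes Ifnar1 and Ifngr1. WT young mice were 16 weeks old, with tamoxifen at 10 weeks and a chase of 6 weeks, and WT old mice were 80 weeks old, with tamoxifen at 71 weeks and a chase of 9 weeks. KO young mice were 16 weeks old, with tamoxifen at 7 weeks and a chase of 9 weeks. KO old mice were labelled 92 to 105 weeks old, with tamoxifen at 85 and 98 weeks and a chase of 9 weeks, ages that do not add up exactly. Each group was 2 mice run in 1 reaction, so group and reaction cannot be told apart, and p-values between groups measure only the spread between the 2 mice within a reaction. Sorting took eYFP+ and GLAST+ cells of the ventricular-subventricular zone (vSVZ), and eYFP+ and eYFP-/PSANCAM low cells taken from the olfactory bulb, the rostral migratory stream and the striatum together, called Rest of the Brain (RoB).

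Cholesterol is built from acetyl-CoA, first through the mevalonate pathway to isoprenoid units, then through squalene to lanosterol, and from lanosterol through a series of demethylation and reduction steps to cholesterol. The brain makes nearly all of its own cholesterol, since lipoproteins of the blood do not cross the blood-brain barrier, and in the adult brain astrocytes are known as a main source that passes it to neurons in particles carrying Apoe. The transcription factor SREBP2 (Srebf2) raises the genes of the pathway together when sterols are low in the membrane of the endoplasmic reticulum.

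After filtering, 18055 cells were used, 5820 and 2396 from the young and old WT mice and 6461 and 3378 from the young and old KO mice, with a median of 5026 to 7393 UMIs per cell by library. Of 26 clusters, formed without the 7 genes and the other sterol lists, 22 were given a class from fixed markers: astrocyte-like (4770 cells), NSC-like (984), replicating progenitor-like (1403), dividing progenitor-like (1005), neuroblast-like (6209), neuron-like (719), olfactory ensheathing glia-like (OEG-like, 2024), microglia-like (329), oligodendrocyte-like (134), endothelial-like (104) and oligodendrocyte precursor-like (OPC-like, 82). Microglia-like and oligodendrocyte-like cells were present although the sort excluded CD45+ and O4+ cells. Antibody hashtags naming the mouse were called in 5815 cells (32.2%), and comparisons between mice rest on these cells alone. The called share was far lower in the young libraries. For WT it was 21.5% (young) against 60.4% (old), and for KO 20.5% against 53.1%. Age comparisons between mice thus rest on unequal shares of the cells. The part of this inequality in the age changes was not tested. Libraries shared 30 cell barcodes, and 17995 barcodes were found in 1 library only.

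The 7 enzyme genes lie on 6 chromosomes of GRCm38 (GENCODE vM21), on different chromosomes except Hmgcs1 (chr13:119690379-119708260, + strand) and Idi1 (chr13:8885501-8892451, + strand). Fdft1 lies at chr14:63145150-63179578 (- strand), Sqle at chr15:59315077-59331192 (+ strand), Lss at chr10:76531588-76557138 (+ strand), Cyp51 at chr5:4081145-4104746 (- strand) and Msmo1 at chr8:64718139-64733792 (- strand). RefSeq promoter windows of GRCm38.p6, from 250 bases before to 50 bases after the gene start, were at hand for 5 of the enzymes. They were searched on both strands for the sterol regulatory element TCACNCCAC, a sequence bound by SREBP, and for CCAAT, the sequence of the NF-Y factor. Because members fell together with age in astrocyte-like cells, as described in what follows, the sterol regulatory element match and, for each gene, the last CCAAT match whose printed stretch ends before the RefSeq start are printed 5′ to 3′ on the gene's strand, with the motif in capitals (ATTGG is CCAAT on the opposite strand). RefSeq and GENCODE starts differ, and the matches of Idi1, Cyp51 and Msmo1 lie inside the GENCODE gene. The sterol regulatory element was found in the Hmgcs1 promoter, 137 bases before the RefSeq start.
Hmgcs1 sterol regulatory element, chr13:119690204-119690232 (+): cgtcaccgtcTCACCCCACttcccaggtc
Hmgcs1 CCAAT, chr13:119690296-119690320 (+): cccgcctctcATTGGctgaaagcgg
Idi1 CCAAT, chr13:8885551-8885575 (+): cctccagctgATTGGcgagcccggg
Lss CCAAT, chr10:76531533-76531557 (+): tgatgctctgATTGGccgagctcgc
Cyp51 CCAAT, chr5:4104712-4104736 (-): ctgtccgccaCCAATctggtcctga
Msmo1 CCAAT, chr8:64733619-64733643 (-): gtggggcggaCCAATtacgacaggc
CCAAT was present in 5 of 5 of these windows and in 9 of the 13 windows of 10 other cholesterol synthesis enzymes, against 37.408% of all 32851 promoter windows. TCACNCCAC was present in 1 of 5, and in 0 of the 13 windows of the other enzymes and 0 of the 12 windows of the SREBP regulators, against 1.242% of all windows. A match is a description of the letters and does not show that a factor was bound.

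The classes differed in the level of the enzymes (the plot of CPM by class and library). Summed over the 7 enzymes, astrocyte-like cells held 1932 CPM in young WT mice and 1379 CPM in old WT mice, and 1644 CPM in young against 1038 CPM in old KO mice. Msmo1 contributed 23612 of the 50448 UMIs in that sum over all libraries. Replicating progenitor-like cells held 1116 ± 38.0 CPM (SD, n = 4 libraries), OEG-like cells 1114 ± 132 and NSC-like cells 822 ± 169. These classes were followed by oligodendrocyte-like, OPC-like, dividing progenitor-like, neuroblast-like, neuron-like and endothelial-like cells, and microglia-like cells were lowest, at 99.0 ± 15.5 CPM. Of the 10 pairs of neighbouring classes in this order, the ranges over libraries did not overlap in 4: NSC-like and oligodendrocyte-like, oligodendrocyte-like and OPC-like, neuron-like and endothelial-like, and endothelial-like and microglia-like. Each of these pairs holds a class with sums from fewer than 4 libraries. Those were OPC-like (1 library, a single value and no range), oligodendrocyte-like (2) and endothelial-like cells (3). The first 4 classes overlapped from one to the next.

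**Figure D1:**
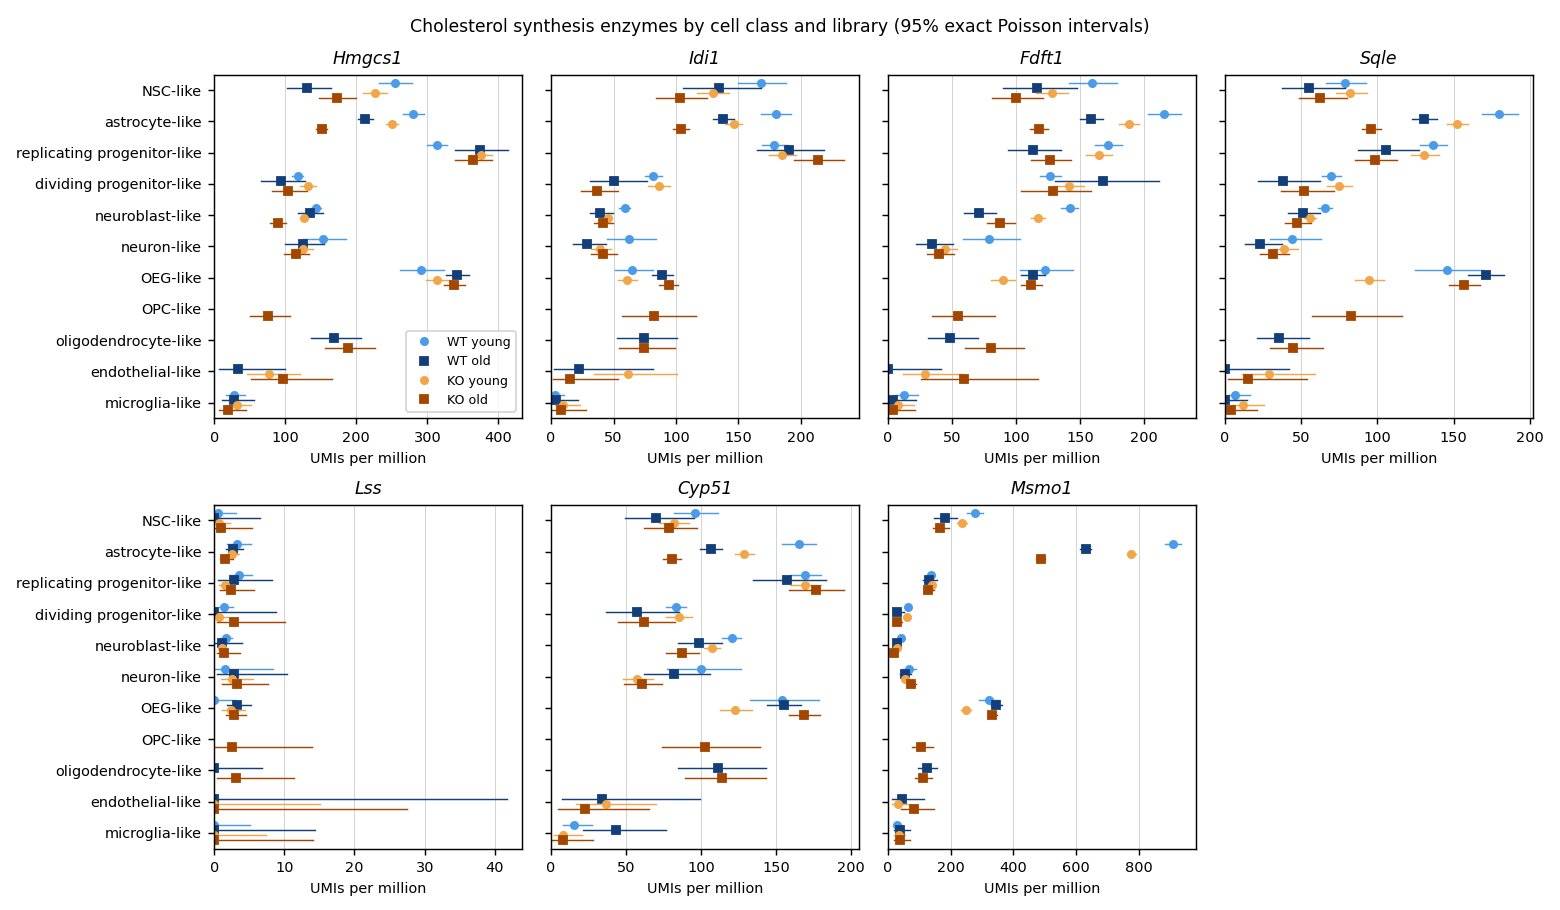
Level of each of the 7 enzymes in CPM (horizontal axis, from 0) in each cell class, with 1 point per library, coloured by group, and lines for 95% exact Poisson intervals, which cover counting error only. Msmo1 stands highest in astrocyte-like cells, Hmgcs1 and Idi1 in replicating progenitor-like cells, and by mean level 5 of the 7 genes stand lowest in microglia-like cells, all but Lss and Msmo1.

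The order of classes differed from step to step of the pathway. Hmgcs1, which joins acetyl-CoA units to HMG-CoA at the entry of the mevalonate pathway, was at 314, 374, 375 and 364 CPM in replicating progenitor-like cells, here and in what follows with the young before the old library and WT before KO. In OEG-like cells it was at 291, 342, 314 and 338 CPM, and in astrocyte-like cells at 280, 213, 250 and 151 CPM in the same order. The range of the first class overlapped that of the second, and both lay above the astrocyte-like range. Idi1, which interconverts the isoprenoid units IPP and DMAPP, was at 179, 190, 185 and 214 CPM in replicating progenitor-like cells and at 65.1, 89.0, 61.1 and 94.0 CPM in OEG-like cells. The ranges of these classes did not meet, although for Hmgcs1 they overlapped.

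Fdft1, squalene synthase, was at 216, 159, 188 and 118 CPM in astrocyte-like cells and at 127, 168, 141 and 129 CPM in dividing progenitor-like cells. For Fdft1 none of the 10 neighbouring pairs of classes was apart, although classes farther from each other in the order were, with 3.83 to 12.6 CPM in microglia-like cells. Sqle, squalene epoxidase, the second rate-limiting enzyme of the pathway, was at 146, 171, 94.7 and 157 CPM in OEG-like and at 180, 131, 152 and 95.8 CPM in astrocyte-like cells. These ranges overlapped, and in both genotypes the OEG-like level was above the astrocyte-like level in old mice and below it in young mice.

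Lss, which closes squalene epoxide to lanosterol, was near the limit of detection. It had 247 UMIs in 17699 cells, was at 0 in 11 of 38 sums of class and library, and reached at most 3.60 CPM. It did not pass the filter on low counts. Without that filter edgeR called it in 3 of 9 comparisons of classes: Lss was higher than in NSC-like cells in astrocyte-like (2.16 on the log2 scale, adjusted p = 0.00629) and in replicating progenitor-like cells (1.88, adjusted p = 0.0221), and lower in microglia-like than in astrocyte-like cells (adjusted p = 0.0128, edgeR). Microglia-like cells held 0 Lss UMIs of 1735887, and set against a floor of 3 counts over the class the astrocyte-like level was at least 1.39-fold higher. No change of Lss with age, genotype or tissue was called without the filter. Cyp51, lanosterol 14-alpha-demethylase, was at 170, 157, 170 and 177 CPM in replicating progenitor-like cells. In astrocyte-like cells it was at 165, 107, 129 and 80.4 CPM, so that only the young WT astrocyte-like library reached the replicating range.

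Msmo1, the sterol C4-methyl oxidase that acts after Cyp51, was the gene that most set astrocyte-like cells apart. It was at 909, 630, 776 and 487 CPM there, at 321, 346, 248 and 332 CPM in OEG-like cells and at 277, 181, 236 and 167 CPM in NSC-like cells. Every astrocyte-like library lay above every library of any other class. This did not hold for astrocyte-like cluster 19 alone, at 133 to 213 CPM, below the OEG-like range. The means of astrocyte-like clusters 0, 4, 11 and 15 were 687, 782, 852 and 538 CPM. In neuroblast-like cells Msmo1 was at 40.7, 29.2, 29.1 and 18.7 CPM. Over all libraries that is 32.6 CPM, against 33.4 CPM (95% exact Poisson interval 25.4 to 43.2, which covers counting error only) in microglia-like cells. Taken as a whole, the neuroblast-like class was thus not above the class lowest in the pathway. Its clusters were unequal: Msmo1 was at 58.8 to 92.4 CPM over the libraries of cluster 6. In clusters 1, 2 and 10 the mean was 17.8, 18.0 and 26.8 CPM. How much of either level came from free RNA in the droplets was not tested.

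Class differences were tested with edgeR's quasi-likelihood test on sums per class and library, with the library as a block, over 13890 genes. Against NSC-like cells, 5 of the 6 members tested were higher in astrocyte-like cells, where 20.8% of all genes were higher and 34.6% were called in either direction. Msmo1 differed by 1.93 on the log2 scale (SE 0.16, adjusted p = 5.69e-13, edgeR), a fold of 3.82. Sqle differed by 1.18 (SE 0.16), Cyp51 by 0.78 (SE 0.14), Fdft1 by 0.68 (SE 0.14) and Hmgcs1 by 0.40 (SE 0.15, adjusted p = 0.0284). The difference in Idi1, 0.33 (95% interval 0.04 to 0.61), did not pass (adjusted p = 0.0833). The median over these 6 genes was 0.73 and over all genes 0.09. With coarser clusters (Leiden resolution 0.5) the Hmgcs1 difference turned to -0.27 (adjusted p = 0.0284). Of 11 other cholesterol synthesis enzymes, 9 were higher in astrocyte-like cells and 0 lower, with the largest differences in Dhcr7 (1.46), which makes cholesterol in the last step, and Tm7sf2 (1.45), a sterol reductase that acts after Cyp51. Of 7 SREBP regulators 6 were higher, among them Srebf2 (0.75), and 1 was lower. Stress genes were lower in astrocyte-like cells in 7 of 7, and their part in the differences was not tested.

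**Figure D2:**
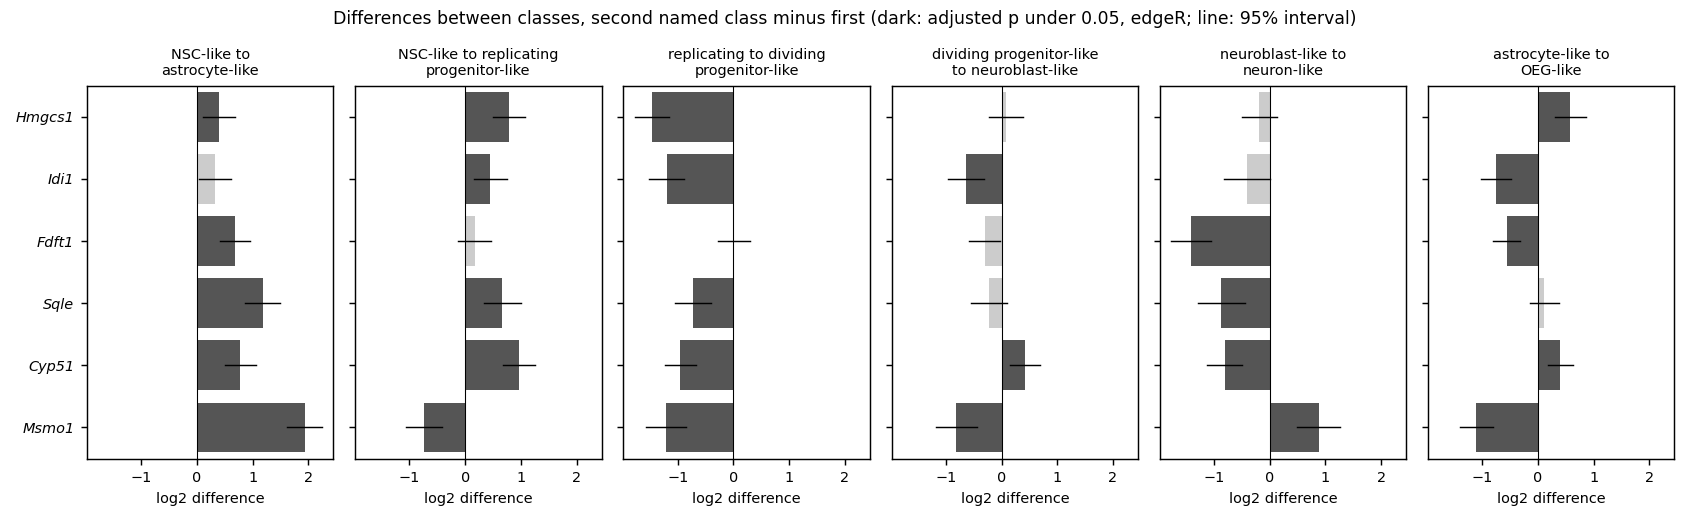
Log2 difference of the 6 tested members (bars) with 95% intervals (lines) in 6 comparisons of classes, each panel giving the later named class minus the earlier. Dark bars passed an adjusted p of 0.05 with edgeR. Bars point mostly up from NSC-like to astrocyte-like cells and down from replicating to dividing progenitor-like cells, where the Fdft1 difference is 0.01.

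Along the neurogenic lineage, replicating progenitor-like cells were set against NSC-like cells. There 4 of 6 members were higher, where 28.3% of all genes were higher, and 1 was lower, where 28.2% were, with 56.5% of all genes called in either direction. Cyp51 was higher by 0.97 (SE 0.15, adjusted p = 3.66e-07, edgeR), Hmgcs1 by 0.79 (SE 0.15), Sqle by 0.66 (SE 0.17) and Idi1 by 0.45 (SE 0.15), and Msmo1 was lower by 0.73 (log2 -0.73, SE 0.16). DESeq2 called 3 of the 6, the Hmgcs1 difference turned to -0.25 with coarser clusters, and Sqle was at -0.0164 when sums per hashtag-called mouse replaced sums per library. Of the 11 other synthesis enzymes 6 were higher and 2 lower, and the fatty acid enzymes went mostly the other way, with 2 of 9 higher and 5 lower, Fads2 by -1.43 and Scd2 by -1.05.

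From replicating to dividing progenitor-like cells, 5 of 6 members fell, where 18.9% of all genes fell and 36.2% were called in either direction. Hmgcs1 fell by 1.47 (SE 0.16, adjusted p = 4.24e-10, edgeR), Msmo1 by 1.21 (SE 0.18) and Idi1 by 1.20 (SE 0.16). Cyp51 fell by 0.96 (SE 0.14) and Sqle by 0.72 (SE 0.16), and the Fdft1 difference was 0.01 (95% interval -0.28 to 0.29). The median over the 6 was -1.08, against -0.05 over all genes. Of the other synthesis enzymes 7 of 11 fell and 1, Ebp (1.26), rose. On sums per hashtag-called mouse 3 of the 6 were called and the Sqle difference was 0.20. Stress genes fell in 6 of 7, Fos by 3.58. The classes also differed in depth, with a median of 11076 UMIs per replicating and 13085 per dividing progenitor-like cell, and the part of either in the differences was not tested.

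At the next steps the members went separate ways. Neuroblast-like cells differed from dividing progenitor-like cells in 3 of 6 members, where 47.6% of all genes were called: Msmo1 (-0.82, SE 0.19, adjusted p = 0.000402, edgeR) and Idi1 (-0.65, SE 0.17) were lower and Cyp51 (0.42, SE 0.14) was higher. Against NSC-like cells, 4 of 6 were called in neuroblast-like cells, where 68.4% of all genes were, and the largest difference was that of Msmo1, -2.76 (SE 0.18). In neuron-like against neuroblast-like cells, 4 of 6 were called, where 60.6% of all genes were. Fdft1 was lower by -1.42 (SE 0.18), Sqle by -0.87 (SE 0.21) and Cyp51 by -0.81 (SE 0.16), while Msmo1 was higher by 0.88 (SE 0.20). Shares of members called near those of all genes are no result about the members.

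Glial and other classes were set against astrocyte-like cells. In OEG-like cells 5 of 6 members differed, where 55.8% of all genes did: Hmgcs1 (0.58, SE 0.14) and Cyp51 (0.40, SE 0.12) were higher, and Msmo1 (-1.11, SE 0.15, adjusted p = 3.51e-08, edgeR), Idi1 (-0.75, SE 0.14) and Fdft1 (-0.56, SE 0.13) were lower. The other synthesis enzymes were split as well, with 4 of 11 higher, Ebp by 2.23, and 3 lower. Stress genes differed between these classes in 7 of 7, Fos by 2.29 and Jun by 2.49, and their part in the differences was not tested. Of the 9 fatty acid enzymes 6 were higher in OEG-like cells, among them Scd1 (3.95) and Elovl6 (1.81).

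Microglia-like cells were lower than astrocyte-like cells in 6 of 6 members, where 32.2% of all genes were lower and 58% were called in either direction. The median difference was -4.42 on the log2 scale against -0.29 over all genes. Pooled over libraries, the astrocyte-like level of the 7 enzymes was 14.9 times that of microglia-like cells (95% exact Poisson interval 12.8 to 17.4), from 7.20 times for Cyp51 to 23.9 times for Idi1. Of the other synthesis enzymes 10 of 11 were lower in microglia-like cells, and Ebp was higher by 1.92. Stress genes were far higher in microglia-like cells, with Jun at 10408 CPM against 408 CPM on average in astrocyte-like libraries, and their part was not tested. In endothelial-like cells 6 of 6 members were lower, where 20.6% of all genes were lower and 35.5% were called in either direction, with a median of -2.46 against -0.39 over all genes.

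**Figure D3:**
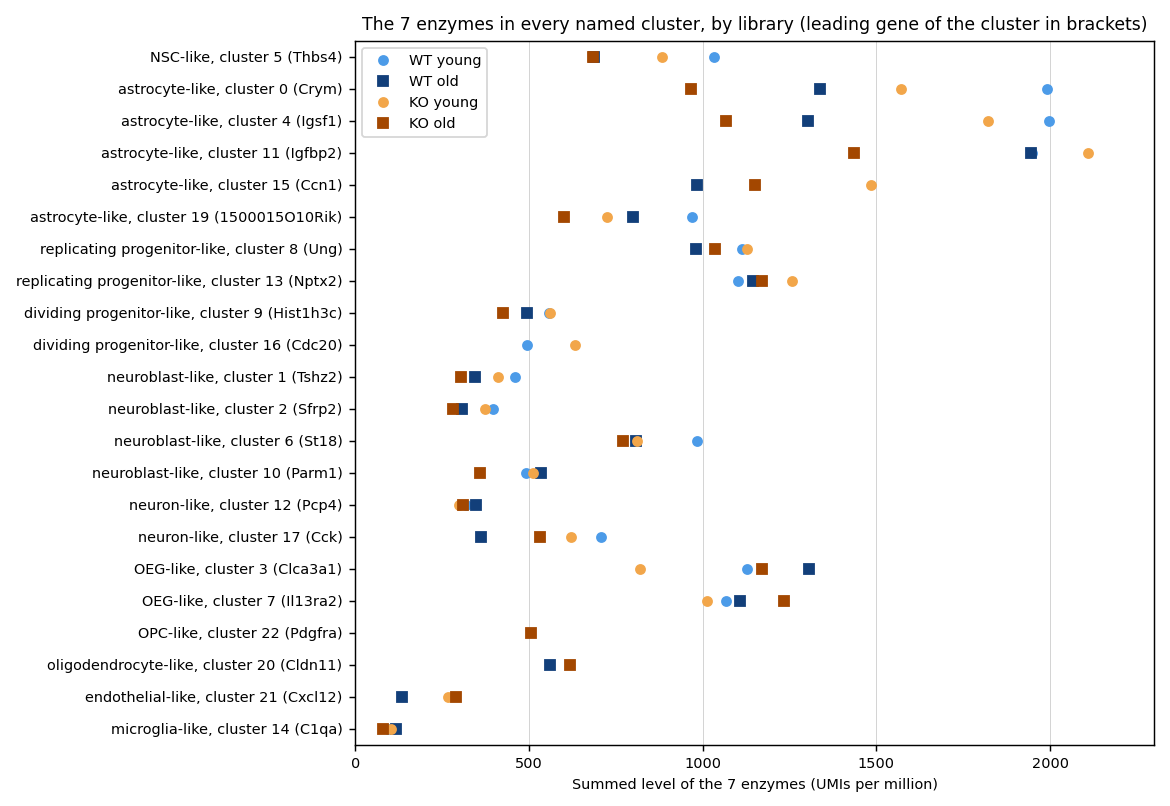
Summed level of the 7 enzymes, in CPM from 0, in each named cluster, with 1 point for each library holding at least 20 cells of it and the cluster's leading gene in brackets. Astrocyte-like clusters spread from 602 to 2109, the neuroblast-like cluster led by St18 stands above the other neuroblast-like clusters, and microglia-like cells are lowest.

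Within classes the clusters were unequal. Among astrocyte-like cells, the 7 enzymes summed to 1992, 1338, 1571 and 966 CPM in cluster 0, the largest, and to 1996, 1302, 1821 and 1067 CPM in cluster 4, in the order given above. Cluster 11, led by Igfbp2 and mostly with RoB hashtags, was at 1949, 1945, 2109 and 1436 CPM. Its old WT level was close to its young WT level, unlike in clusters 0 and 4, while its old KO level was below the young one. Cluster 19, also of RoB, was at 968, 800, 725 and 602 CPM, below the 3 others in each library. Cluster 15, whose leading genes include the stress and immediate early genes Ccn1, Dusp1 and Fos, was at 983 CPM in old WT mice and at 1485 and 1151 CPM in young and old KO mice. Cluster 0 held the most astrocyte-like cells in each library.

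Neuroblast-like cluster 6, led by St18, was at 984, 808, 812 and 771 CPM, where the other neuroblast-like clusters lay between 281 and 534 CPM. Of the replicating progenitor-like clusters, cluster 8, led by Ung and Mcm genes, was at 1114, 980, 1128 and 1035 CPM and cluster 13, led by Nptx2, at 1101, 1145, 1258 and 1170 CPM. Both OEG-like clusters were lowest in young KO mice, at 820 CPM in cluster 3 and 1011 CPM in cluster 7. These cluster levels are descriptions with no test.

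Over the 38 sums of class and library, the enzymes followed each other to different degrees on the log2 scale. Pearson's r was 0.93 for Fdft1 and Sqle and 0.88 for Hmgcs1 and Cyp51, and lower for Msmo1, from 0.48 with Fdft1 to 0.68 with Hmgcs1 (Lss, at 0 in many sums, was left aside). The sums share libraries, and large differences between classes set most of these values. Among 11354 genes, those whose level followed the mean of the enzymes most closely were Cntfr (r = 0.92), the receptor subunit for CNTF, Gpm6b (0.92), a membrane protein of glia, and Nudt2 (0.91). Of the pathway, Nsdhl was at rank 8 (0.88) and Srebf2 at rank 87 (0.81). Ebp, which isomerises the sterol ring, had an r of -0.45, at rank 10158.

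With age, the enzymes fell in astrocyte-like cells of both genotypes (the plot of levels by mouse). In WT mice 6 of the 6 members tested fell, where 3.27% of 10037 genes fell and 5.4% were called in either direction. In KO mice 6 of 6 fell, where 0.877% of all genes fell and 1.35% were called in either direction. These tests used edgeR's quasi-likelihood test on sums per mouse, 2 young and 2 old mice a genotype. The median change of the members was -0.59 in WT and -0.67 in KO mice, against 0.02 and -0.0049 over all genes, and both genotypes come from 1 fit.

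**Figure D4:**
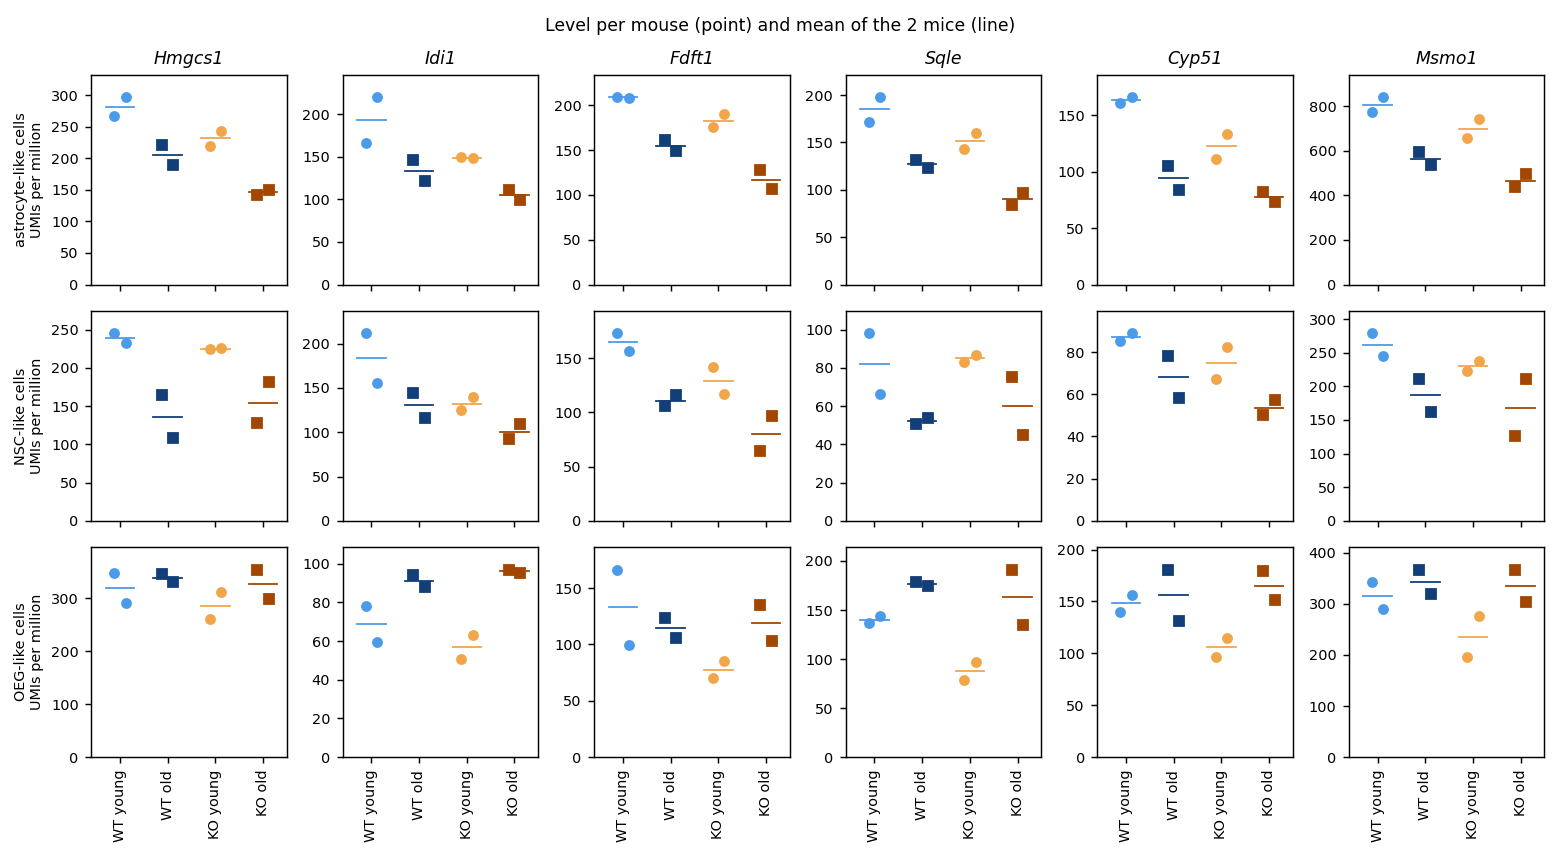
Level of 6 members by mouse, in CPM from 0, in astrocyte-like (top), NSC-like (middle) and OEG-like cells (bottom), with 1 point per mouse and a line at the mean of the 2 mice of a group. In astrocyte-like cells old mice lie below young mice of the same genotype, and in OEG-like cells of KO mice they lie above them, except for Hmgcs1. How many of all genes separate the mice in this way was not counted.

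Hmgcs1 was at 267 and 297 CPM in young WT mice, against 220 and 190 CPM in old WT mice, and at 220 and 243 CPM in young against 142 and 150 CPM in old KO mice. Both old groups lay wholly below their young groups, and the WT old mice overlapped the KO young mice. The change was -0.52 (SE 0.11, adjusted p = 0.00587, edgeR) in WT and -0.69 (SE 0.11, adjusted p = 0.000578) in KO mice. Idi1 was at 166 and 220 CPM in WT young and at 146 and 122 CPM in WT old mice, a change of -0.60 (SE 0.13, adjusted p = 0.00785). In KO mice it was at 150 and 148 CPM when young and at 111 and 98.7 CPM when old, a change of -0.53 (SE 0.13, adjusted p = 0.0320). For Idi1 in WT mice the gap between the closest young and old mouse was smaller than the gap between the 2 WT young mice.

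Fdft1 was at 209 and 209 CPM in WT young and at 161 and 149 CPM in WT old mice, and at 175 and 190 CPM in KO young against 128 and 106 CPM in KO old mice. Its change was -0.49 (SE 0.12, adjusted p = 0.0138, edgeR) in WT and -0.67 (SE 0.11, adjusted p = 0.00104) in KO mice. Sqle was at 172 and 198 CPM in WT young, 131 and 123.15 CPM in WT old mice, against 144 and 160 CPM in young and 83.7 and 96.4 CPM in old KO mice. Young and old mice of a genotype were apart for both squalene enzymes. The Sqle change was -0.60 (SE 0.13, adjusted p = 0.00532) in WT and -0.77 (SE 0.12, adjusted p = 0.00058) in KO mice.

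Cyp51 was at 161 and 166 CPM in WT young and at 105 and 83.9 CPM in WT old mice, the largest WT change among the members at -0.87 (SE 0.14, adjusted p = 0.000576, edgeR), a fold of 0.549. In KO mice it was at 111 and 134 CPM when young and at 82.1 and 73.2 CPM when old, a change of -0.68 (SE 0.13, adjusted p = 0.00712). The KO young mice lay between the WT young and the WT old mice. Msmo1 was at 773 and 841 CPM in WT young, 594 and 537 CPM in WT old mice, against 657 and 742 CPM in young and 437 and 496 CPM in old KO mice. Its change was -0.57 (SE 0.10, adjusted p = 0.000738) in WT and -0.61 (SE 0.09, adjusted p = 0.000508) in KO mice.

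The calls rested on few mice. Without KO young mouse 2 none of the 6 members was called in KO mice and without KO old mouse 2, 4 were. Without WT old mouse 2, or without WT young mouse 2, 2 of the 6 were called in WT mice. With a stricter hashtag call 3 were called in WT and 1 in KO mice, and DESeq2 called 6 in WT and 4 in KO mice. For the 6 enzymes the direction was downward in each of the 17 settings tried in either genotype. With vSVZ hashtags only, 6 were called in each genotype, and in cluster 0 alone 6 were called in WT and 5 in KO mice.

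Among the 11 other cholesterol synthesis enzymes, 1 fell in WT astrocyte-like cells, Fdps (-0.80, SE 0.15), which makes farnesyl pyrophosphate. In KO mice 4 of 11 fell, which besides Fdps (-0.68) were Dhcr7 (-0.87), Hsd17b7 (-0.80) and Nsdhl (-0.67). Their summed level was 678 to 766 CPM in WT young and 571 to 623 CPM in WT old mice, and 641 to 697 CPM in KO young and 469 to 480.2 CPM in KO old mice. Of the 7 SREBP regulators, Srebf1 (0.38, SE 0.11) rose in WT mice and Insig1 (-0.55, SE 0.11), which retains SREBP in the endoplasmic reticulum, fell in KO mice. Of the fatty acid enzymes Scd2 rose in WT mice (0.29, SE 0.08) and none of 9 was called in KO mice. Abca1, which exports cholesterol, rose in KO mice (0.48, SE 0.10), the only call among 5 genes of sterol removal tested in either genotype.

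Some markers moved with age in the same cells. The 7 neuroblast markers summed to 190 to 239 CPM in astrocyte-like cells of WT young and 109 to 116 CPM of WT old mice, and to 206 to 207 CPM in KO young and 84.2 to 94.1 CPM in KO old mice. In neuroblast-like cells of the same mice they summed to 11635 CPM or more. The 9 astrocyte markers summed to 17517 to 19433 CPM in WT young, 19655 to 19887 CPM in WT old mice, and 21134 to 21417 CPM in young and 20261 to 20844 CPM in old KO mice. Stress genes fell in KO mice in 2 of 5 tested, Jun (-0.89, SE 0.16) and Egr1 (-1.06, SE 0.26), and their sum ranged from 873 to 1340 CPM in KO old and from 1375 to 2340 CPM in KO young mice. The part of these moves in the change of the enzymes was not tested. Median depth per cell was 5593 to 5696 UMIs in WT young and 7599 to 7808 in WT old mice, and 8016 to 8380 in KO young and 7068 to 7262 in KO old mice, and the part of depth in the change was not tested.

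In each of the other classes compared, 0 to 2 members were called with age in a genotype (the plot of age changes by class). In NSC-like cells 6 of the 7 members passed the filter, and all 6 were lower in old mice of both genotypes. Their median change was -0.47 in WT and -0.46 in KO mice, against 0.005 and -0.0022 over all genes. None was called by edgeR or by DESeq2, where edgeR called 1.47% of 6323 genes in WT and 0.617% in KO mice. At an unadjusted p under 0.05, edgeR gave 2 of 6 in WT and 3 of 6 in KO mice, and 882 and 586 of the 6323 genes. Hmgcs1 was at 245 and 233 CPM in WT young and 164 and 108 CPM in WT old mice, and its change of -0.75 (95% interval -1.17 to -0.33) had an adjusted p of 0.0755. In KO mice Hmgcs1 was at 225 and 226 CPM when young and 128 and 181 CPM when old, a change of -0.48 (95% interval -0.84 to -0.12). Only 32 to 50 cells of an old mouse were in this class. The difference in age change between NSC-like and astrocyte-like cells was called for 0 of 6 members in either genotype, where 0.127% of genes in WT and 0.382% in KO mice were. At an unadjusted p under 0.05 edgeR gave 0 members in either genotype, and DESeq2 called 0.

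**Figure D5:**
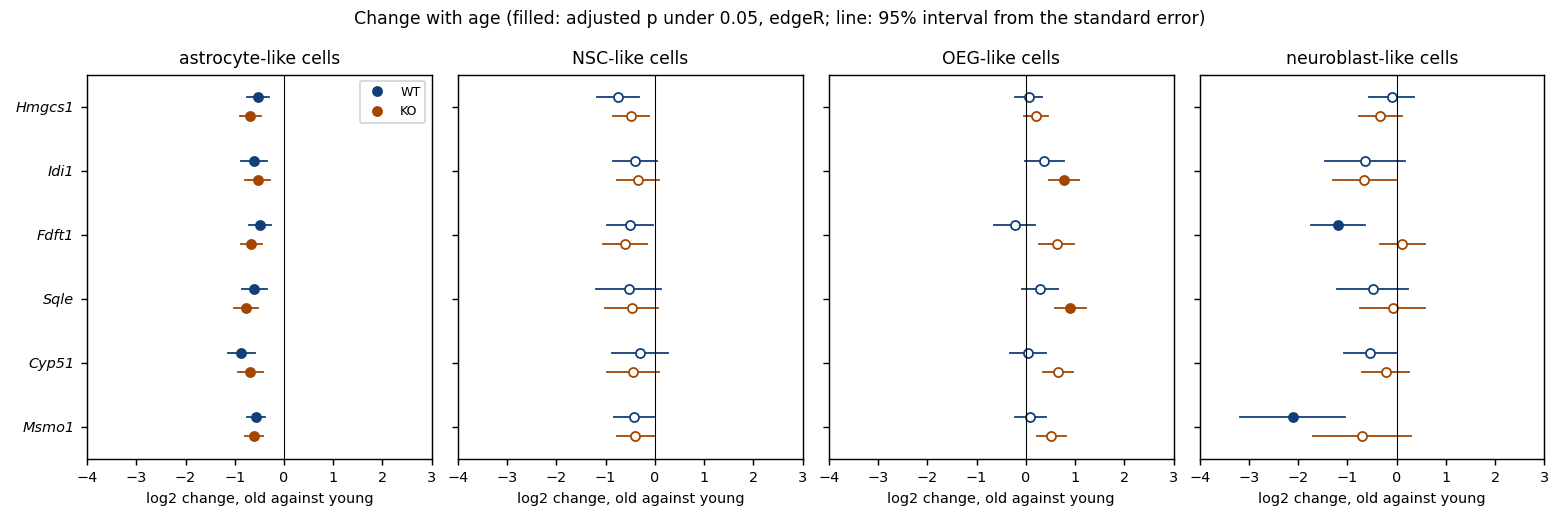
Log2 change with age, old against young, of each tested member in astrocyte-like, NSC-like, OEG-like and neuroblast-like cells of WT and KO mice, with 95% intervals as lines. Filled points passed an adjusted p of 0.05 with edgeR. Points lie below 0 in astrocyte-like cells and above 0 in OEG-like cells of KO mice, where 2 of 6 are filled.

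In OEG-like cells of KO mice Sqle and Idi1 rose with age, 2 of 6 members, where 0.129% of 10084 genes rose and 0.278% were called in either direction. Sqle was at 78.6 and 96.8 CPM in KO young and at 191 and 134 CPM in KO old mice, a change of 0.90 (SE 0.16, adjusted p = 0.0216, edgeR). Idi1 was at 50.8 and 63.4 CPM in KO young and at 96.9 and 94.97 CPM in KO old mice, a change of 0.78 (SE 0.15, adjusted p = 0.0383). All 6 estimates were above 0, with a median of 0.64 against 0.0021 over all genes. The change of Hmgcs1 was 0.20 (95% interval -0.04 to 0.44). DESeq2 called 1 of the 6, and none was called without KO old mouse 1, KO young mouse 1, WT old mouse 1 or WT old mouse 2, while without a filter on low counts 5 were.

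In WT OEG-like cells edgeR called 0 of 6 members, with 0 at an unadjusted p under 0.05 and 0 by DESeq2, where 2.02% of all genes were called. Sqle was at 137 and 144 CPM in WT young and at 178 and 174 CPM in WT old mice, a change of 0.29 (95% interval -0.07 to 0.66). Cyp51 changed by 0.04 (95% interval -0.32 to 0.41) and Msmo1 by 0.09 (-0.22 to 0.41). Srebf1 rose in these cells (0.56, SE 0.12). Interferon-stimulated genes summed to 2165 to 2607 CPM in OEG-like cells of WT mice and to 958 to 1037 CPM in those of KO mice. Neuroblast markers in OEG-like cells summed to 75.9 to 651 CPM in young and 11.6 to 18.3 CPM in old mice over both genotypes, and their part in the changes was not tested.

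The age change itself differed between OEG-like and astrocyte-like cells of KO mice. Tested with the mouse as a block, a comparison added after the data were seen, 6 of 6 members were higher in the difference, where 0.305% of 11139 genes were higher and 0.566% were called in either direction. The difference was 1.66 for Sqle (SE 0.20, adjusted p = 1.09e-06, edgeR), 1.33 for Cyp51 (SE 0.18), 1.29 for Fdft1 (SE 0.19), 1.31 for Idi1 (SE 0.21), 1.13 for Msmo1 (SE 0.17) and 0.88 for Hmgcs1 (SE 0.17, adjusted p = 0.00207). DESeq2 called 2 of the 6. Of the other synthesis enzymes 5 of 11 were higher in the difference, among them Nsdhl (1.46, SE 0.23) and Fdps (1.29, SE 0.20), and Insig1 was higher as well (1.00, SE 0.16).

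In WT mice the same difference was called for 0 of 6 members, where 0.135% of genes were called. All 6 estimates were above 0, and DESeq2 called 0. With edgeR 5 members had an unadjusted p under 0.05, as did 689 of 11139 genes. Cyp51 came nearest, with 0.87 (95% interval 0.46 to 1.27, adjusted p = 0.0658, edgeR). Between 0 and 4 were called when single mice were left out, 4 without KO old mouse 1 or KO old mouse 2 and 2 without KO young mouse 2, and 4 without a filter on low counts. The genotypes were not shown to differ: KO minus WT was called for 0 of 6 members and for 0 of all genes (0%) by edgeR, and DESeq2 called 0. For KO minus WT 2 members had an unadjusted p under 0.05 with edgeR, as did 552 of 11139 genes.

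In neuroblast-like cells, where 6 of the 7 members passed the filter, Fdft1 and Msmo1 fell with age in WT mice, 2 of 6, where 3.14% of 6665 genes were called. Fdft1 was at 126 and 154 CPM in WT young and at 63.2 and 61.1 CPM in WT old mice, a change of -1.19 (SE 0.28, adjusted p = 0.00574, edgeR). Msmo1 was at 57.7 and 45.5 CPM in WT young and at 12.04 and 12.2 CPM in WT old mice. The old levels came from 4 and 2 UMIs, and the change was -2.11 (SE 0.54, adjusted p = 0.0132, edgeR). So few UMIs do not place the old mice below the 33.4 CPM of microglia-like cells. The old WT mice had 54 and 30 hashtag-called neuroblast-like cells, where their library held 313 with or without a hashtag. Over all neuroblast-like cells of the WT libraries, Msmo1 was at 40.7 CPM in young and 29.2 CPM in old mice. That is 0.718 times the young level, a far smaller fall, and for Fdft1 the same ratio was 0.503. These library ratios have no replicate check. Neuroblast-like clusters were unequal in both genes, with a mean Fdft1 level of 199 CPM in cluster 6. In clusters 1, 2 and 10 that mean was 98.5, 60.3 and 88.3 CPM. The part of cluster make-up in the falls was not tested. DESeq2 called 0 of the 6, and none was called without WT old mouse 1, while 1 was called without either WT young mouse. In KO mice 0 of 6 were called by edgeR, where 0.18% of genes were, and 0 by DESeq2. At an unadjusted p under 0.05 edgeR gave 1 member, and 548 of 6665 genes.

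Replicating progenitor-like cells could be compared with age in KO mice only, with 28 to 37 cells a mouse. There 0 of 6 members were called by edgeR, where 0.768% of 7034 genes were, and 0 by DESeq2. At an unadjusted p under 0.05 edgeR gave 2 members, and 817 of 7034 genes. Hmgcs1 was at 359 and 166 CPM in KO young and at 336 and 527 CPM in KO old mice, and its change of 0.73 had an interval of 0.18 to 1.28 (adjusted p = 0.281, edgeR). Per library, over all cells with or without a hashtag, the 7 enzymes in old mice were at 0.968 times the young level in WT and 0.952 times in KO mice in this class, against 0.714 and 0.631 times in astrocyte-like and 1.11 and 1.29 times in OEG-like cells. Libraries are 1 per group, so these ratios have no replicate check.

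Loss of the interferon receptors was not seen to change a member at the threshold used in astrocyte-like or OEG-like cells. In astrocyte-like cells of old mice KO was below WT in 6 of 6 members, with a median of -0.31 against -0.0009 over all genes. Of these, 0 were called by edgeR or DESeq2, where edgeR called 0.179% of genes. At an unadjusted p under 0.05 edgeR gave 5 of 6 members, and 841 of 10037 genes. The largest difference was that of Sqle, -0.43 (95% interval -0.67 to -0.20, adjusted p = 0.19), and the lowest adjusted p that of Hmgcs1 (0.111, difference -0.42). KO old mice were also older than WT old mice, so age and genotype cannot be told apart in this comparison. In cluster 0 alone 1 member was called, and without a filter on low counts 1. In young mice KO was likewise below WT in 6 of 6 members, with a median of -0.26 against 0.0085 over all genes. Both young groups had the same age, but their tamoxifen age and chase differed. Of the 6, 0 were called by edgeR, where 1.37% of genes were, and 0 by DESeq2. At an unadjusted p under 0.05 edgeR gave 3 members, and 1358 of 10037 genes. In cluster 0 alone 3 members were called in young mice.

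In OEG-like cells of young mice 0 of 6 members were called by edgeR or DESeq2, where edgeR called 0.575% of genes. At an unadjusted p under 0.05 edgeR gave 4 members, and 1114 of 10084 genes. All 6 estimates were below 0. Fdft1 was lowest, at -0.75 (95% interval -1.20 to -0.29, adjusted p = 0.198, edgeR). In old mice 0 of 6 were called, where 0.387% of genes were, with 0 at an unadjusted p under 0.05 and 0 by DESeq2.

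The age change was not shown to differ between the genotypes. In astrocyte-like cells the interaction was called for 0 of 6 members, where 0.299% of genes were, with 0 at an unadjusted p under 0.05 and 0 by DESeq2. For Hmgcs1, KO minus WT was -0.16 (95% interval -0.47 to 0.14) and for Msmo1 -0.03 (-0.30 to 0.23), so differences of this size between the genotypes could not be resolved. In OEG-like cells the interaction was called for 0 of 6 by edgeR or DESeq2, where edgeR called 0% of genes. At an unadjusted p under 0.05 edgeR gave 3 members, and 1000 of 10084 genes. All 6 estimates were above 0.

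Between tissues, astrocyte-like cells of RoB were compared with those of vSVZ within the same 8 mice. None of the 6 members was called by edgeR or DESeq2, where edgeR called 11% of 7701 genes, and 0 had an unadjusted p under 0.05. The differences ran from -0.14 for Fdft1 (95% interval -0.30 to 0.02) to 0.13 for Sqle (95% interval -0.05 to 0.32). Insig1 (0.36, SE 0.08) and Mvd (0.51, SE 0.14), of the mevalonate pathway, were higher in RoB.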

How the data were processed

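Single-cell RNA libraries (10x 3′ v3.1), 1 reaction per group, were deposited as UMI counts per barcode and gene, with hashtag counts per barcode. Reads were cleaned of index hopping by the authors and counted with kallisto and bustools in the lamanno workflow, which separates spliced from unspliced RNA, while hashtags were counted with CITE-seq-Count. Per the submitters' processing notes the build was GRCm38 and Scanpy 1.6.0 was used. Whether the deposited matrix includes unspliced reads is not given in the sources used here. In all, 844265 deposited barcodes held 186198190 UMIs. Cells with 1000 to 20000 UMIs, 100 to 6000 genes and under 10% mitochondrial UMIs were kept (18390), and 335 doublets predicted with Scrublet were removed. Clusters came from 2000 variable genes, 50 principal components, 15 neighbours and Leiden resolution 1 (scanpy 1.11.5, leidenalg 0.10.2), leaving out the 7 genes, the other sterol lists, interferon-stimulated genes, mitochondrial genes and transgenes. Classes were named from fixed markers, and 4 clusters stayed unnamed. Mouse and tissue were taken from the hashtags, 4 per library, with a mixture model.

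UMI counts were summed per class and library or mouse, from at least 20 cells, and tested with edgeR 4.0.16 (R 4.3.3) by its quasi-likelihood test with filterByExpr and TMM scaling. P-values were adjusted over all genes tested (Benjamini-Hochberg), with a threshold of 0.05. Library was a block between classes, and mouse between tissues. All 4 groups shared 1 fit per class for age and genotype. DESeq2 1.42.0 was an alternative. Intervals of log2 values are 1.96 standard errors to either side. The procedure was tested on simulated data. The members, gene lists and tests were chosen with earlier results of these data known. Some genes of the pathway are not reported here. The genes named are the members, and those of the other lists that passed the threshold or had the largest differences. Of 9 samples 1, whose label gives no group, was not used.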

Additional observations from a re-analysis of the deposited data

Results flagged for a closer look

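In KO mice the change with age differed between OEG-like and astrocyte-like cells for 6 members, of 60 such differences tested. On the log2 scale the difference was 1.66 for Sqle, 1.33 for Cyp51, 1.31 for Idi1, 1.29 for Fdft1, 1.13 for Msmo1 and 0.88 for Hmgcs1, by edgeR's quasi-likelihood test with the mouse as a block. The groups of 2 old and 2 young mice are 1 reaction each, but both classes of a mouse come from the same reaction. No library stood apart from the rest of its class in 55 groups of 4 libraries.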

How the results depend on the processing

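Between the age and genotype groups no replicate block was fitted, since mice of different groups are different animals that share only a number. Of 455 values of single genes under other settings, 413 kept their direction and their side of the threshold, 38 lost the call and 4 reversed. The reversed values were Hmgcs1 at -0.27 between astrocyte-like and NSC-like cells and at -0.25 between replicating progenitor-like and NSC-like cells with Leiden resolution 0.5, and Sqle at 0.20 between dividing and replicating progenitor-like cells and at -0.0164 between replicating progenitor-like and NSC-like cells with sums per mouse. The cause was not tested.

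Counts of members called moved as follows. With DESeq2 they were 2 for OEG-like minus astrocyte-like age change in KO mice, 1 for age in KO OEG-like, 4 for age in KO astrocyte-like and 0 for age in WT neuroblast-like cells, and 3 for replicating progenitor-like against NSC-like cells. With no filter on low counts they were 4 for OEG-like minus astrocyte-like age change in WT mice, 5 for age in KO OEG-like, 1 for age in WT NSC-like, 1 for genotype in old astrocyte-like and 1 for genotype in young OEG-like cells. With the strict hashtag call they were 3 for age in WT and 1 in KO astrocyte-like cells. With doublets kept they were 1 for OEG-like minus astrocyte-like age change in WT mice and 1 for genotype in young neuroblast-like cells. In the largest astrocyte-like cluster alone, chosen after seeing the data, they were 1 for genotype in old and 3 in young mice, and with Leiden resolution 0.5, 2 for NSC-like minus astrocyte-like age change in KO mice. With sums per mouse they were 3 for dividing against replicating and 3 for replicating progenitor-like against NSC-like cells. With no replicate block, 0 members were called between tissues, as with it, and between classes 2 to 6 were, each within 1.5 times the count with the block.

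Leaving out 1 mouse gave 0 to 6 members called for age in KO and 2 to 6 in WT astrocyte-like cells, 0 to 2 for age in KO OEG-like, KO replicating progenitor-like and WT neuroblast-like cells, and 0 to 1 for age in WT NSC-like cells. It gave 5 to 6 for OEG-like minus astrocyte-like age change in KO and 0 to 4 in WT mice. With 1 mouse left in a group, that mouse was assumed to vary like the others. OPC-like and oligodendrocyte-like cells were in too few libraries to be tested.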
